A study of Mus musculus with 4 samples.

Results

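Replication-dependent histone genes, which supply the histones packaged with newly copied DNA, were followed in muscle stem cells sorted from regenerating mouse muscle. The members were chosen by symbol alone: H1f1 to H1f5 for linker histones, and symbols made of H2ac, H2bc, H3c or H4c and digits for the core histones. The rule found 63 of the 25827 genes in the matrices, namely 5 H1, 17 H2A, 17 H2B, 12 H3 and 12 H4 genes. By the GENCODE M21 annotation (GRCm38), which matched all 63 by gene identifier, 53 members lie on chromosome 13 and 10 on chromosome 3.

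A nucleosome holds DNA around a core of H2A, H2B, H3 and H4, and an H1 linker histone binds where the DNA enters and leaves. The genes of this family sit in clusters, mostly lack introns and are transcribed when DNA is copied in S phase, under the coactivator Npat. Their mRNAs typically end in a conserved stem-loop that is bound by Slbp, instead of a poly(A) tail, and are degraded once DNA copying stops. Replication-independent histones, such as H3f3a or H2az1, come from polyadenylated mRNAs made throughout the cell cycle. The chemistry used here primes on poly(A), so a count of a member stands for the captured molecules of that gene and not for all of its mRNA.

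The stem-loop is shown here because it is the feature that the members share outside their protein sequences. A search for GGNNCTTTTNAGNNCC on the sense strand of the annotated transcripts found it in 40 of the 63 members. It was found in 40 of the 47 members whose longest annotated transcript runs at least 40 bases past the stop codon and in 0 of the 16 that end within 39 bases of it. For comparison, 98 of 58797 protein-coding transcripts (0.167%) held these letters. The 6 forms found were the following, with the 6 bases on each side that can pair in capitals and the 4 bases of the loop in lower case.
Form in 24 members, among them H2ac24, H2ac8, H1f2, H1f3 and H1f4: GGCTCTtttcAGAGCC
Form in 6 H4 members, among them H4c4 and H4c8: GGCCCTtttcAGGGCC
Form in 5 members, H3c3, H3c6, H3c7, H2bc3 and H2bc12: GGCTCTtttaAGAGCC
Form in H4c9 and H4c14: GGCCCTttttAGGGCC
Form in H4c2 and H4c11: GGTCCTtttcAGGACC
Form in H2ac20: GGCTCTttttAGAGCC

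Promoter windows are shown because the members moved together across the cell cycle. The RefSeq promoter table (GRCm38.p6, 32851 windows from 250 bases before to 50 bases after a start) held 57 of the 63 members. Missing entries were H2bc4, H2bc21, H2bc24, H3c1, H3c7 and H4c14. Short words known from histone promoters were searched on both strands. On the sense strand, CCAAT was in all 5 H1, all 17 H2A, all 14 H2B and all 10 H3 windows but in 1 of 11 H4 windows, against 21.1% of all windows. TATAAA on the sense strand was in 4 of 5 H1, 10 of 17 H2A, 3 of 14 H2B, 4 of 10 H3 and 8 of 11 H4 windows, against 8.32% of all windows. The octamer ATTTGCAT, known as the site read by Oct1 in H2B promoters, was on the sense strand of 7 of 14 H2B windows and of 0 windows of any other class, against 0.877% of all windows. On the reverse strand it was in 6 of 17 H2A windows, and 3 of the 10 distinct copies lay in a window shared by an H2A gene and the H2B gene on the other side (H2ac1 and H2bc1, H2ac8 and H2bc8, H2ac12 and H2bc12). The 250 bases before the start of 4 members are printed on the gene's own strand, with the 3 words in capitals where they occur on either strand.
H1f5, chr13:21780626-21780875, minus strand: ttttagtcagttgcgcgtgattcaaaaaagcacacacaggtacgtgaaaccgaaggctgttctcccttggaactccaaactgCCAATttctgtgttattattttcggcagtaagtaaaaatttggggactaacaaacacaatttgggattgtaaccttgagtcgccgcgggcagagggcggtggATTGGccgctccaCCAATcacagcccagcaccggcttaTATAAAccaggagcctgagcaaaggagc
H2ac24, chr13:21833476-21833725, minus strand: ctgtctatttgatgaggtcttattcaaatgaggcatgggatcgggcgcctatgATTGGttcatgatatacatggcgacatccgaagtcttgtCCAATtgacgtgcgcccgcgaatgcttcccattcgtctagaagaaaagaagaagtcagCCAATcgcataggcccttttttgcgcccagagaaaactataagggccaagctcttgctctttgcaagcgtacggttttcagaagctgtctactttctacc
H2bc8, chr13:23571150-23571399, plus strand: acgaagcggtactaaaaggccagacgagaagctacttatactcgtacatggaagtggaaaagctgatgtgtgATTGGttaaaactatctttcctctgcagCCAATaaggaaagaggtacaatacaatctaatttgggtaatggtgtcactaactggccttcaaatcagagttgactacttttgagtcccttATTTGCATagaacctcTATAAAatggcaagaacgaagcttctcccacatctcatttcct
H4c4, chr13:23581318-23581567, plus strand: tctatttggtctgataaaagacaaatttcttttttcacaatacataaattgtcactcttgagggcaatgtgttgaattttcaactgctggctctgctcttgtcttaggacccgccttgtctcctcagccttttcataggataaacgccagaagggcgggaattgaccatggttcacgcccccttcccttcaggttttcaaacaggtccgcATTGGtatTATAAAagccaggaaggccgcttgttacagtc
These words describe the windows, and whether a factor reads them in these cells was not measured.

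The study asked whether loss of miR-501 in muscle stem cells changes the balance of resting, dividing and committed myogenic progenitors during regeneration. Single-cell libraries were made from male mice aged 12 weeks, on day 6 after cardiotoxin was injected into the tibialis anterior muscle, from cells sorted as CD45-, CD31-, Sca1- and α7-integrin+. Control mice carried Pax7Cre, a Cre recombinase expressed from the Pax7 locus, and miR-501KO mice carried the same Cre with a floxed miR-501 on the single X chromosome (Pax7Cre miR-501 fl/Y). There were 2 libraries per genotype, 1 from each of 2 runs that the labels describe as independent experiments, and each library pooled 3 mice. The Cre is not inducible, so recombination can have taken place in any cell that expressed Pax7 earlier in life, and pooling leaves no value for a single mouse.

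The 4 matrices held 73665012 to 117527749 unique molecular identifiers (UMIs, each a captured molecule). Of 16519 barcodes, 10450 had at least 5000 UMIs and 1000 genes and were kept (1829 to 3439 per library, with a median of 25254 to 34579 UMIs), and 10 barcode sequences occurred in more than 1 library. The miR-501 precursor is not a feature of the matrices, so the deletion could not be checked. Its host gene Clcn5 was at 135 to 157 CPM (UMIs of a gene scaled to a common library total) and the stem cell marker Pax7 at 78.0 to 100.4 CPM in all 4 libraries. The miR-501KO library of run 1 stood apart: it held 755 of the 763 cells of the pair of clusters that drew over 90% of their cells from 1 library, hereafter the single-library clusters. The larger of these, of 659 cells, was led by the muscle fiber genes Mylpf, Ckm and Myl4. Values without these clusters are given beside many results that rest on that library, and all other values include them.

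Members made up 589722 UMIs in the kept cells, and a few genes held most of them. H2A genes supplied 42.2% of member UMIs, H1 genes 31.5%, H4 genes 10.6%, H2B genes 8.85% and H3 genes 6.83%. H2ac24 alone supplied 22.1%, H2ac24 and H1f5 together 41.1%, the leading 5 members (with H2ac8, H4c4 and H1f4) 66.7% and the leading 16 members 90.2%. Averaged over libraries, 43 members were at 1 CPM or more and 20 at 10 CPM or more. At the other end, H2ac19 had 4 UMIs, H2ac1 had 2, and H2bc1 and H2bc23 had 1 each. These shares count captured 3′ ends and were not divided by transcript length. They are also not fully separable by gene: among the last 300 bases of the longest transcripts, 44 of 63 members shared at least 1 stretch of 50 bases with another member's transcript, and 32 shared over 50% of such stretches. All 5 H1 genes shared none, whereas H2ac24, H2ac18, H2bc24, H3c6 and H3c7 shared 100%, so their split from near-identical copies is uncertain.

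Values per library are given throughout in the order Pax7Cre run 1, Pax7Cre run 2, miR-501KO run 1 and miR-501KO run 2. All members together made up 14.6, 16.8, 22.8 and 14.8 of every 10000 UMIs in all kept cells. The miR-501KO library of run 1 was the highest (25.5 without the single-library clusters), and the other libraries lay close together. H1 genes made up 45.8%, 28.3%, 22.2% and 29.7% of member UMIs, and H2A genes 23.3%, 49.2%, 51.1% and 47.4%. The Pax7Cre library of run 1 was thus the only library with more H1 than H2A, and H2ac24 supplied 5.53% of its member UMIs against 25.5% to 31.0% in the other libraries.

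**Figure D1:**
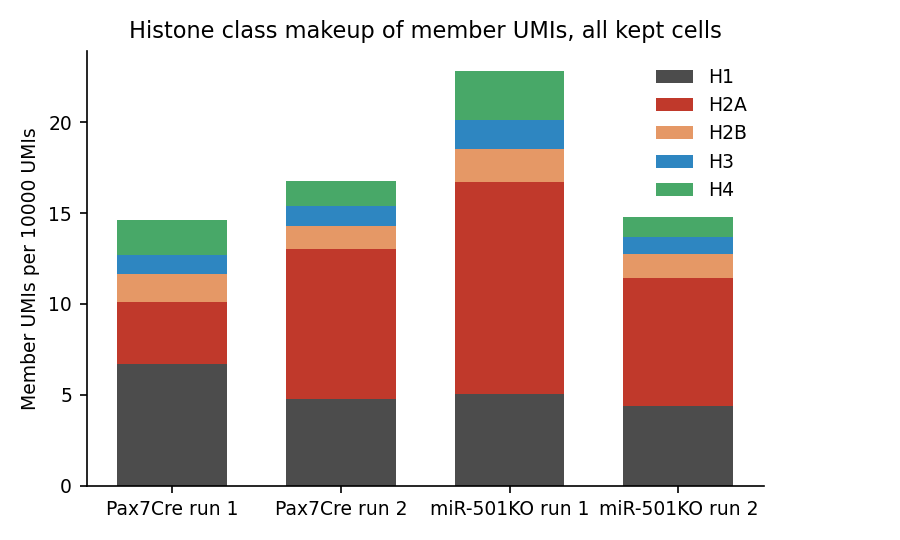
Member UMIs per 10000 UMIs in all kept cells of each library (bars start at 0), stacked by histone class. The miR-501KO library of run 1 reaches 22.8 and the other libraries 14.6 to 16.8, and the H2A segment is smallest in the Pax7Cre library of run 1 (3.40 per 10000).

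To ask how the members followed the cell cycle, each cell was given an S score from 38 genes and a G2/M score from 54 genes, none of them a member, after thinning every cell to 5000 UMIs. Cells with neither score above 0 were called G1, and the others took the phase of the larger score. These calls cut a continuous range: 1943 cells lay within 0.05 of 0 on the S score and 1085 on the G2/M score, and a resting cell is also called G1. S-scored cells were 17.4%, 16.5%, 15.9% and 19.0% of each library. G2/M-scored cells were 22.1%, 16.2%, 32.5% and 21.6%, with the miR-501KO library of run 1 the highest (22.7% without the single-library clusters).

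Members made up 2.26, 1.79, 3.05 and 1.68 of every 10000 UMIs in G1-scored cells and 21.6, 27.5, 37.7 and 22.3 in S-scored cells. Each library was far higher in S than any library was in G1. Without the single-library clusters the miR-501KO library of run 1 came to 2.56 in G1-scored and 46.7 in S-scored cells. UMIs were summed per library and phase and compared with edgeR's quasi-likelihood test with the library as a block (n = 4 libraries). Of the 56 members with enough counts to test, 53 were higher in S-scored cells and 0 lower at an adjusted p (Benjamini-Hochberg over all genes) under 0.05. Over all 14257 genes tested, 28.0% were higher and 26.3% lower. The median log2 fold change was 3.89 over the members tested and -0.03 over all genes. The 7 members left out had 1 to 93 UMIs each, and a member can pass the filter on low counts through the phase where it is high, so the count describes the members and is no support in itself. Without the single-library clusters 52 of 54 members were higher, against 30.9% of genes.

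**Figure D2:**
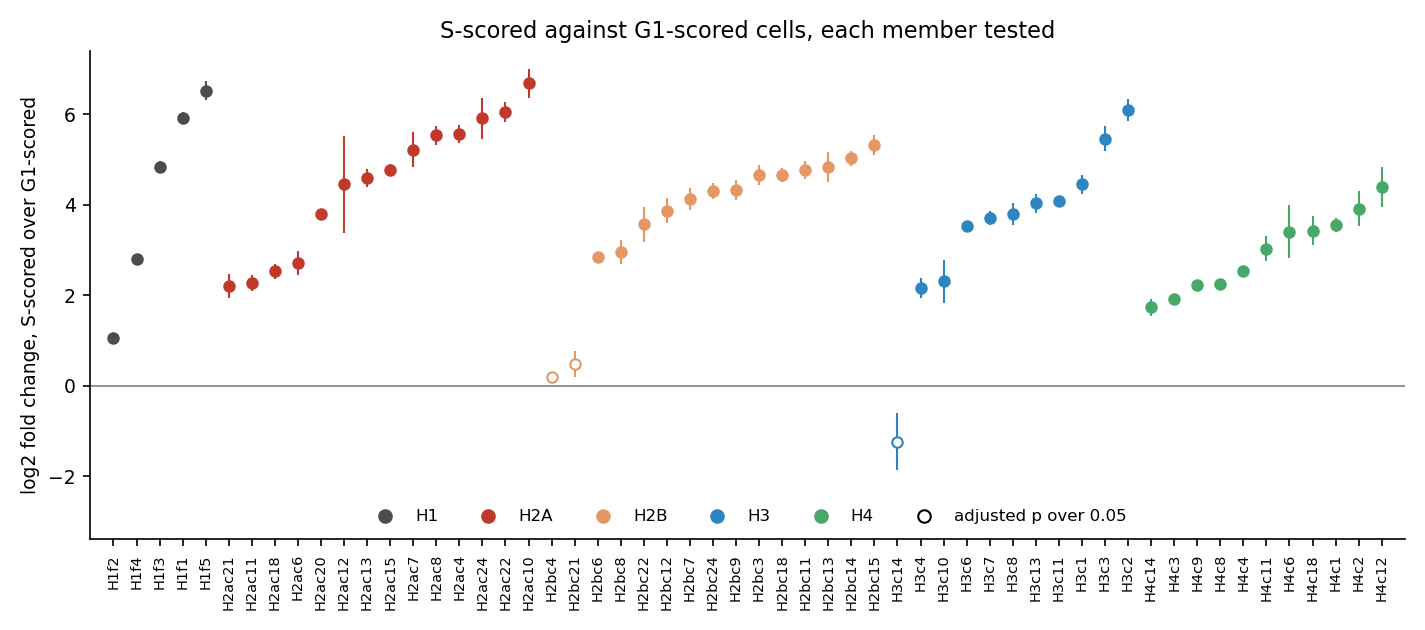
Log2 fold change of S-scored over G1-scored cells (vertical axis) for each of the 56 members tested, coloured by histone class. Bars give the standard error from the edgeR fit. All members but the open points H2bc4, H2bc21 and H3c14 lie above 0 with an adjusted p under 0.05.

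All 5 linker histone genes rose in S-scored cells, with log2 fold changes from 1.05 to 6.52 (median 4.83). H1f5 (H1.5) was at 12.5, 4.73, 6.68 and 4.96 CPM in G1-scored and 693, 595, 531 and 515 CPM in S-scored cells, a log2 fold change of 6.52 (SE 0.21, adjusted p from edgeR = 1.33e-09). The S and G1 levels did not overlap. H1f1 rose by 5.91 (SE 0.13), H1f3 by 4.83 (SE 0.13) and H1f4 by 2.79 (SE 0.07) on the log2 scale. H1f4 (H1.4) was already at 33.8, 16.2, 31.4 and 16.8 CPM in G1-scored cells. H1f2 (H1.2) moved least of the class, from 23.1, 24.7, 23.4 and 22.0 CPM in G1 to 47.6, 45.2, 48.4 and 36.0 CPM in S, a log2 fold change of 1.05 (SE 0.08, adjusted p from edgeR = 1.7e-06). Even so, every library was higher in S than all were in G1.

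All 14 H2A genes tested rose, with a median log2 fold change of 4.68 and a range of 2.21 to 6.68. H2ac24 was at 2.90, 6.84, 56.1 and 5.14 CPM in G1-scored cells and 137, 804, 1267 and 617 CPM in S-scored cells, a log2 fold change of 5.91 (SE 0.45). The G1 level of the miR-501KO library of run 1 stood far above the others and was 11.8 CPM without the single-library clusters. H2ac8, which shares a promoter region with H2bc8, was at 7.71, 7.67, 9.63 and 5.84 CPM in G1 and 209, 376, 447 and 326 CPM in S. That was a log2 fold change of 5.53 (SE 0.21), with no overlap between phases. H2ac10 had an estimate of 6.68 (SE 0.32), from at most 0.305 CPM in G1 to 10.7 to 13.6 CPM in S. With so few UMIs in G1 the estimate depended on single libraries: it was 7.996 without the Pax7Cre library of run 1 and 6.31 without that of run 2, so its rank against H1f5 and H2ac24 is not fixed. H2ac22 rose by 6.05 (SE 0.21), H2ac4 by 5.56 (SE 0.20) and H2ac20, on chromosome 3, by 3.79 (SE 0.11).

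Of 15 H2B genes tested, 13 rose (median 4.30 over those tested) and 2 did not pass the test. H2bc15 rose by 5.32 (SE 0.22), H2bc14 by 5.03 (SE 0.16), H2bc11 by 4.76 (SE 0.20) and H2bc18 by 4.66 (SE 0.16), and H2bc6 by 2.84 (SE 0.09). H2bc4, the H2B gene with the most UMIs, behaved differently: it was at 60.6, 60.3, 57.2 and 62.4 CPM in G1-scored and 59.5, 61.3, 67.0 and 61.6 CPM in S-scored cells. The ranges of the phases overlapped and the log2 fold change was 0.18 (SE 0.10, adjusted p from edgeR = 0.14). In G1-scored cells it averaged 60.1 ± 2.18 CPM (SD, n = 4) and was the highest member in every library. H2bc21 was at 0.40 to 0.49 CPM in G1 and 0.49 to 0.81 CPM in S, with a log2 fold change of 0.47 (SE 0.29, adjusted p from edgeR = 0.20).

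Of 11 H3 genes tested, 10 rose (median 3.79 over those tested). H3c2 rose by 6.10 (SE 0.24) and H3c3, the most counted H3 gene, by 5.45 (SE 0.27), from 3.14, 1.19, 1.83 and 1.01 CPM in G1 to 62.0, 85.4, 94.0 and 63.6 CPM in S. H3c6 and H3c7, whose transcript ends cannot be told apart from other members', rose by 3.53 (SE 0.10) and 3.71 (SE 0.15). H3c14 was the only member with a negative estimate, -1.24 (SE 0.63, adjusted p from edgeR = 0.12), from 0.36, 0.44, 0.73 and 0.75 CPM in G1 and 0.46, 0.14, 0.00 and 0.12 CPM in S. It had 151 UMIs in all. It was lower in S in 3 of 4 libraries, and it passed the test (-2.60, adjusted p = 0.0174) without the Pax7Cre library of run 1 and (-1.32, adjusted p = 0.0499) with phases called on cells that were not thinned. With no filter on low counts H3c15, also a low-count gene, was called lower instead.

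All 11 H4 genes tested rose, with the lowest class median, 3.03 (range 1.73 to 4.39). H4c4, the leading H4 gene, was at 33.7, 18.4, 48.8 and 13.8 CPM in G1-scored cells and 160, 116, 232 and 78.4 CPM in S-scored cells, a log2 fold change of 2.54 (SE 0.10, adjusted p from edgeR = 6.67e-09). Both run 1 libraries were higher than both run 2 libraries in each phase, and S exceeded G1 in all 4 libraries. H4c9 rose by 2.23 (SE 0.07), H4c8 by 2.24 (SE 0.07) and H4c3 by 1.92 (SE 0.11).

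**Figure D3:**
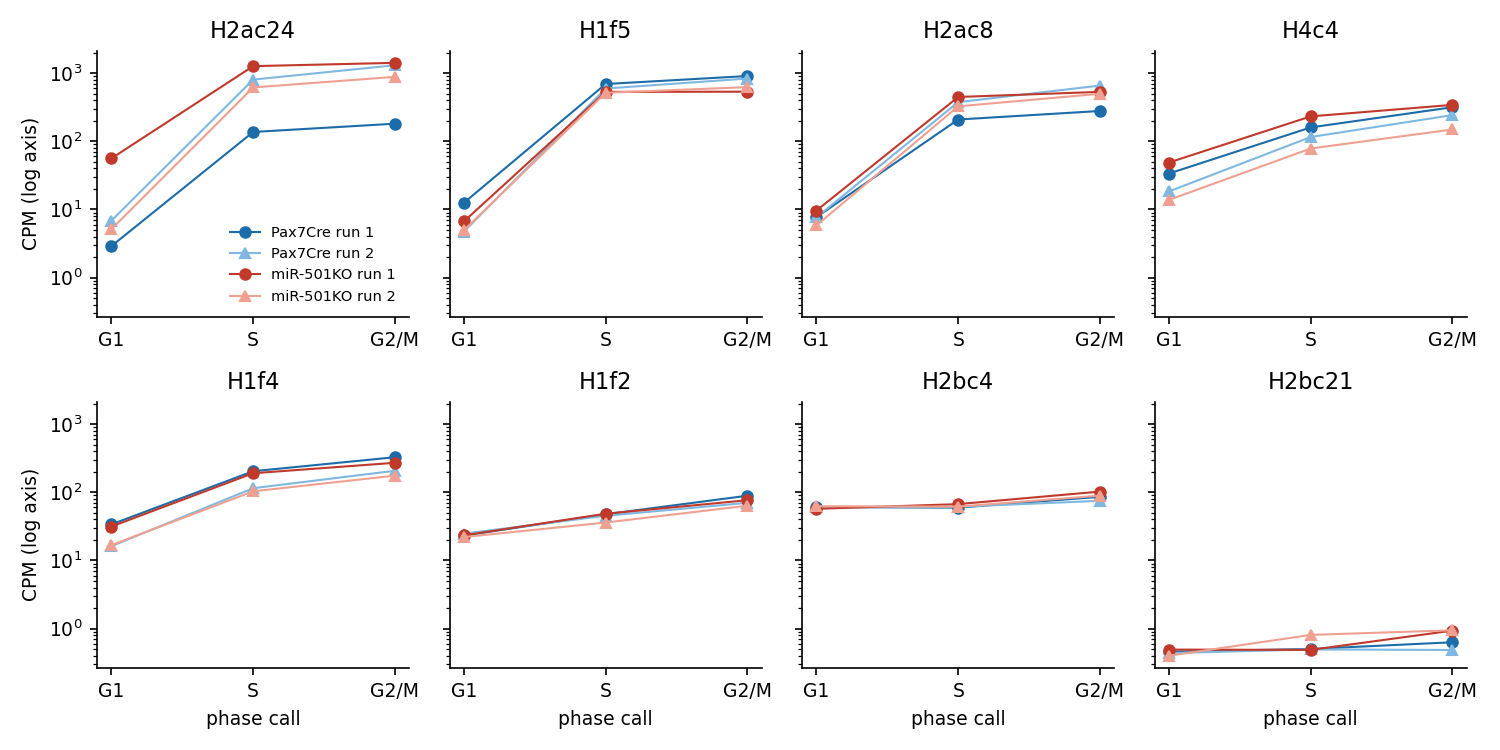
CPM (log axis) of 8 members in G1-, S- and G2/M-scored cells of each library. H2ac24, H1f5 and H2ac8 are steep, H4c4, H1f4 and H1f2 are less so, and H2bc4 stays between 57.2 and 102.3 CPM.

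The annotated ends of the transcripts were set beside these changes as a description. Of 22 members whose annotated transcripts end within 100 bases of the stem-loop, 19 were tested, all 19 rose, and the median log2 fold change was 4.13. Of 18 with a transcript that runs over 100 bases past it, 17 were tested, 16 rose, and the median was 2.79. The longer group had a median G1 level of 1.46 CPM and included H1f2 (840 bases past the stem-loop), H1f4 (1153) and H4c4 (770), against a median G1 level of 0.418 CPM in the shorter group. H2bc4 and H2bc21 were among the 7 members with at least 40 annotated bases past the stop codon and no match, of which 4 of 6 tested rose (median 3.67). Of the 16 members annotated to at most 39 bases past the stop codon, 14 were tested, all 14 rose, and the median was 4.62. The groups rest on annotation and were not tested against each other.

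In G2/M-scored cells the members stayed high, at 31.9, 45.0, 45.4 and 33.3 of every 10000 UMIs. These were above the S level of the same library in all 4 libraries. The miR-501KO library of run 1 came to 63.3 without the single-library clusters. Of the 56 members tested in G2/M-scored against S-scored cells, 34 were higher and 0 lower (edgeR, adjusted p under 0.05), with a median log2 fold change of 0.68. Over all genes 10.5% were higher and 9.44% lower. Without the single-library clusters 40 of 54 members were higher, against 15.4% of genes. Without the library block 11 of 56 were, against 929 of 14257 genes. By class, 3 H1, 8 H2A, 10 H2B, 6 H3 and 7 H4 genes rose. H1f2 rose by 0.76 (SE 0.08), H1f4 by 0.71 (SE 0.06), H4c4 by 0.90 (SE 0.09), H2bc18 by 1.09 (SE 0.12) and H2bc4 by 0.51 (SE 0.10). The leading pair did not pass the test: H2ac24 had an estimate of 0.48 (SE 0.35, adjusted p = 0.38) and H1f5 of 0.30 (SE 0.16, adjusted p = 0.23). H2ac24 passed it without the single-library clusters (0.46, adjusted p = 0.0415), and with a minimum of 2000 UMIs per cell H1f5 did (0.57, adjusted p = 0.0256).

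Because many cells had both scores above 0, members were also described in the 4 score classes. Cells with only the S score above 0 numbered 324, 158, 221 and 239, and members made up 2.62, 2.10, 4.98 and 1.96 of every 10000 UMIs in them. This total was near that of cells with neither score (2.26, 1.79, 3.05 and 1.68), and the miR-501KO library of run 1 came to 2.64 without the single-library clusters. Histone classes differed: H2A genes were at 1.43, 2.12, 3.05 and 2.07 times the level with neither score. H1 genes were at 0.99 to 1.23 times it, H2B at 0.81 to 1.02, H3 at 1.19 to 1.34 and H4 at 1.07 to 1.20. Without those clusters that library came to 1.57 for H2A, 0.76 for H2B and 0.91 for H3. Within H1, H1f5 exceeded its level with neither score in every library (34.4, 25.3, 19.9 and 14.2 CPM). H1f2 fell below its own (16.1, 12.6, 16.7 and 12.9 CPM). In the 780, 333, 683 and 540 cells with both scores above 0 the members reached 40.9, 56.8, 69.2 and 42.4 per 10000. In the 254, 107, 468 and 175 cells with only the G2/M score above 0 they were at 7.36, 11.0, 12.3 and 8.35 per 10000. The order of the 4 classes was the same in every library.

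Pcna and Mcm5 are set beside the members for scale only: both are among the 38 genes of the S score, so their high level in cells with that score follows from how the classes were made. Pcna, the sliding clamp of DNA polymerase, was at 223, 264, 202 and 213 CPM in cells with only the S score and at 254, 335, 229 and 296 CPM in cells with both. Mcm5, a subunit of the replicative helicase, was at 91.8, 108, 75.1 and 92.6 CPM with only the S score and at 75.0, 89.98, 67.2 and 82.3 CPM with both. Members were 15.6, 27.1, 13.9 and 21.7 times higher in cells with both scores than in cells with only the S score. The ratio of the miR-501KO library of run 1 was 31.6 without the single-library clusters, the highest of the 4 instead of the lowest. For H2A genes the ratios were 29.8, 57.7, 13.9 and 51.6, and for H2B genes 4.6, 5.4, 6.4 and 3.7, and without those clusters that library came to 72.1 for H2A and 10.6 for H2B. The classes are ranges of scores, and these values are descriptions with no test.

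**Figure D4:**
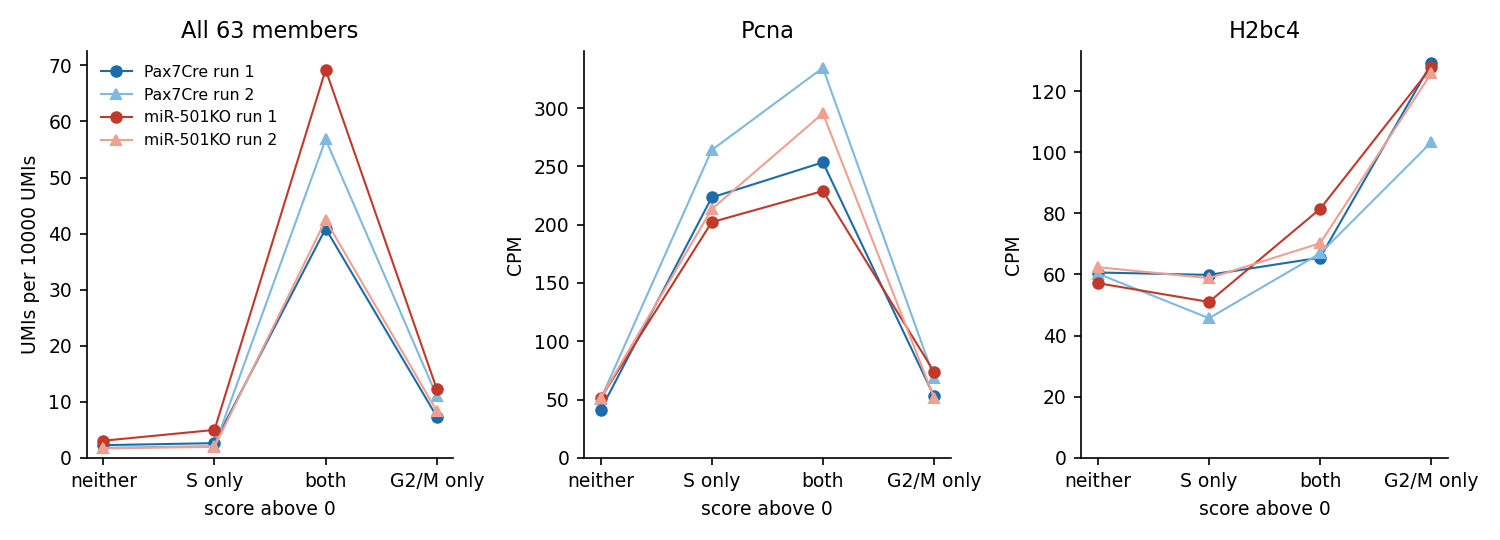
Levels in cells with neither score, only the S score, both scores and only the G2/M score above 0, by library, for all 63 members (UMIs per 10000), Pcna and H2bc4 (CPM). Members peak with both scores (40.9 to 69.2) and are at 1.96 to 4.98 with only the S score, where Pcna, a gene of that score, is at 202 to 264 CPM.

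Cell by cell, member UMIs were concentrated in few cells. After thinning to 5000 UMIs, at least 1 member UMI was found in 61.1%, 49.5%, 66.4% and 45.1% of G1-scored cells and in 72.6%, 67.6%, 86.9% and 68.0% of S-scored cells. G1-scored cells should hold little of these mRNAs, and at the same depth of 5000 UMIs their share was not far below that of S-scored cells. This share counts a cell with 1 UMI of any member. In G1-scored cells the highest members on average were H2bc4 (60.1 CPM), H4c4 (28.7), H1f4 (24.6) and H1f2 (23.3). At least 20 member UMIs were found in 18.4%, 22.9%, 18.0% and 17.9% of S-scored cells and in 0% to 0.0717% of G1-scored cells. The 10% of cells with the most member UMIs held 67.4%, 78.6%, 67.8% and 73.6% of them. The highest cell of each library had 102, 104, 192 and 99 of its 5000 UMIs from members. Without the single-library clusters, 77.2% of S-scored cells of the miR-501KO library of run 1 had a member UMI. The top 10% of its cells then held 75.8% of member UMIs.

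Genes that make, process or carry histones are set beside the members, from 3 lists. Of 12 tested genes for histone mRNA transcription and processing, 10 rose in S-scored cells (median log2 fold change 0.58), against 28.0% of all genes. Slbp, which binds the stem-loop, rose by 1.82 (SE 0.06), Eri1, an exonuclease that trims it, by 1.61 (SE 0.06) and Npat by 0.78 (SE 0.05). In G2/M-scored against S-scored cells 2 of the 12 rose and 4 fell: Slbp decreased by 0.67, Casp8ap2 by 0.66, Npat by 0.43 and Eri1 by 0.40 on the log2 scale. Slbp went the other way from the 34 members that rose in that comparison.

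Of 18 histone chaperones, 14 rose in S-scored cells (median 0.71), led by Asf1b (5.05, SE 0.21) and by Chaf1b (4.65, SE 0.10) and Chaf1a (3.48, SE 0.07), subunits of the factor that places H3 and H4 on new DNA. In G2/M-scored cells 0 rose and 5 fell, with Chaf1b decreased by 1.66 on the log2 scale. Of 13 tested genes listed as replication-independent histones 12 rose in S (median 0.72), with H2az1 up by 1.98 (SE 0.05) and H3f3a by 0.20 (SE 0.05). H2ax (1.93, SE 0.08) and H4f16 (1.20, SE 0.34) are on that list. Whether each listed mRNA is replication-independent was not checked. In G2/M-scored cells 8 rose and 1 fell, and the linker histone H1f0 rose by 1.23 (SE 0.05). One of the 8, the centromeric Cenpa, is a gene of the G2/M score, so its rise follows from the scoring.

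The question between genotypes was whether loss of miR-501 changed the members in all cells or within a phase. S-scored cells made up 16.96 ± 0.45% (SEM, n = 2) of Pax7Cre and 17.5 ± 1.57% of miR-501KO cells, a difference of 0.49 percentage points that was -1.53 in run 1 and 2.52 in run 2 (exact two-sided permutation p = 1). With 2 against 2 libraries the smallest p that permutations can give is 0.3333. Members made up 15.7 ± 1.08 (SEM) of every 10000 UMIs in Pax7Cre and 18.8 ± 3.99 in miR-501KO libraries, higher by 8.19 in run 1 and lower in run 2 (difference -1.96; exact permutation p = 0.667). The groups overlapped, and the direction differed between runs.

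By class, the differences of miR-501KO minus Pax7Cre in all cells were -0.98 per 10000 for H1, 3.50 for H2A, 0.15 for H2B, 0.21 for H3 and 0.24 for H4. Leaving out those 763 cells changed these to -0.49, 3.88, 0.22, 0.36 and 0.47. H2A was higher by 8.24 in run 1 and differed by -1.24 in run 2. H1 was lower in miR-501KO in both runs, by -1.62 (-0.61 without those cells) and -0.34, with an exact permutation p of 0.667. Within the H2A class, the genes other than H2ac24 made up 2.60, 3.63, 4.58 and 3.24 per 10000, a smaller spread than that of H2ac24.

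In the edgeR fits of genotype, 0 of 58 members tested in all cells, 0 of 51 in S-scored cells and 0 of 39 in G1-scored cells passed an adjusted p under 0.05, as did 0 of 15725, 13102 and 15040 genes (0.0% each). At an unadjusted p under 0.05 there were 3, 1 and 2 members and 440, 433 and 386 genes. DESeq2 called 0 members and 11, 6 and 10 genes. The lists of processing factors, chaperones and replication-independent histones likewise had 0 genes called. Estimates were positive for 44 of 58 members in all cells, 40 of 51 in S-scored cells and 18 of 39 in G1-scored cells (medians 0.22, 0.22 and -0.05). In S-scored cells that count was 26 of 51 (median 0.003) without the 5% of cells with the most UMIs. The 5 H1 genes had negative estimates in all 3 fits, but without the single-library clusters 3 of the 5 were positive in S-scored cells, and within run 1 the ratio was then above 1 for 3 of 5 in all cells and for 5 of 5 in S-scored cells.

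Libraries of the genotypes did not overlap for few members. In all cells 5 of 58 members were higher in both miR-501KO libraries, against 15.4% of genes, and 3 were lower, against 9.98% of genes. The lower ones were H1f5, H2ac10 and H2ac22, and the higher ones H2bc4, H2bc22, H2bc21, H3c14 and H4c18. H1f5 was at 404 and 311 CPM in Pax7Cre and at 268 and 285 CPM in miR-501KO libraries, a log2 fold change of -0.39 (SE 0.16, adjusted p from edgeR = 0.9998). Without the single-library clusters H1f5 was at 324 CPM in the miR-501KO library of run 1, the genotypes overlapped, and 0 members were lower in both miR-501KO libraries, against 5.73% of genes, while 5 were higher, against 19.1%. In S-scored cells 2 members were higher, against 12.2% of genes, and 1 lower, against 19.6%. In G1-scored cells 4 were higher, against 21.4% of genes, and 1 lower, against 6.6%.

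Among the 56 members with UMIs in S-scored cells of all 4 libraries, H2ac24 had the widest spread there, 9.25 times from lowest to highest. In all cells it was at 80.7 and 462 CPM in Pax7Cre and at 707 and 378 CPM in miR-501KO libraries. The Pax7Cre library of run 1 was the low one, and the other Pax7Cre library lay between the miR-501KO libraries. The genotype estimate was 1.004 (SE 0.73, adjusted p from edgeR = 0.9998) in all cells and 1.05 (SE 0.74) in S-scored cells. It rested on single libraries: without the Pax7Cre library of run 1 it was 0.24 and 0.28, and without that of run 2 it was 2.70 and 2.79. Without the miR-501KO library of run 1 it was 0.48 and 0.43. In thinned S-scored cells H2ac24 was seen in 25.5%, 36.1%, 65.3% and 36.7% of cells and H1f5 in 37.6%, 32.5%, 30.4% and 34.9%. The share for H2ac24 in the miR-501KO library of run 1 was 42.5% outside the single-library clusters. Other wide spreads in S-scored cells were 7.18 times for H4c18, 6.86 for H2bc24, 6.16 for H2ac7, 5.85 for H2ac13 and 5.47 for H3c2, against 1.13 for H2bc4 and 1.25 for H4c9.

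For most members the sign of the genotype difference was not the same in both runs. Among the 43 members at 1 CPM or more, the ratio of miR-501KO to Pax7Cre in S-scored cells was above 1 for 39 in run 1 (median log2 ratio 0.58) and for 3 in run 2 (median -0.34). Without the single-library clusters these were 41 (0.91) and 3. The share of all genes with a ratio above 1 within each run was not computed. In S-scored cells 25 of 51 members were higher in both run 1 libraries than in both run 2 libraries and 0 were lower, against 15.3% and 23.8% of genes.

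**Figure D5:**
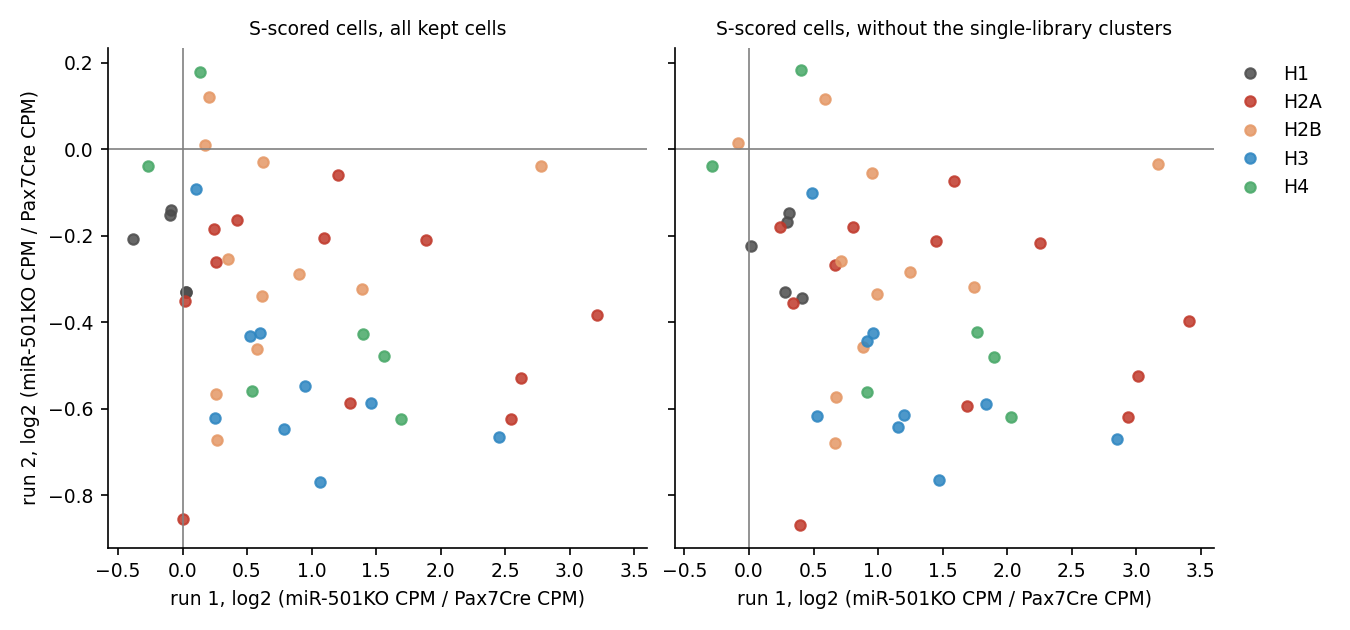
Log2 ratio of miR-501KO to Pax7Cre CPM in S-scored cells, run 1 (horizontal) against run 2 (vertical), 1 point per member at 1 CPM or more, for all kept cells and without the single-library clusters. Most points lie right of 0 in run 1 (39 of 43, then 41) and below 0 in run 2, where 3 lie above.

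With the run as a block and without the single-library clusters, a combination chosen after seeing the data, 8 members were higher in miR-501KO in all cells, against 1.07% of genes, and 10 in S-scored cells, against 1.02% of genes. Lower were 0 members in each, against 0.083% and 0.298% of genes. They were led in S-scored cells by H2bc24 (log2 fold change 1.496, adjusted p from edgeR = 1.37e-07) and H2ac24 (1.48, adjusted p = 2.03e-07). Within run 1 all 10 were higher in miR-501KO, with log2 ratios of 1.59 to 3.41. Within run 2 all 10 were lower, with ratios of -0.67 to -0.03. The adjusted p-values of these 10 thus do not stand for a difference seen in both runs. Of the 8 in all cells, all 8 were higher in run 1 and 1, H4c18, in run 2. With the run block alone, 0 members were called in all cells (0.0% of genes) or in S-scored cells (0.00763% of genes, all higher). In G1-scored cells the block alone called H2ac24 (1.95, adjusted p from edgeR = 0.000137), with 0.851% of genes called higher and 0.0598% lower, and without the single-library clusters it called 0 members, against 0.588% of genes higher and 0.0468% lower.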

How the data were processed

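The deposited files are filtered gene-by-cell matrices of counts (UMIs) that, per the file headers, the authors made with Cell Ranger 6.0.2 from 10x Chromium 3′ (3.1 chemistry) libraries, on GRCm39 per the submitters' processing notes. The deposited counts were used unchanged. A cell was kept if it reached 5000 UMIs and 1000 genes, and no doublet caller was run (an alternative left out the 5% of cells with the most UMIs). Phases were scored with scanpy 1.11.5 on cells thinned to 5000 UMIs. Clusters came from 2000 variable genes chosen with the members left out, 30 components, 15 neighbours and a resolution of 0.5 (18 clusters). The names quiescent-, cycling- or committed-like were taken from marker lists. Counts were summed per library and phase and tested with edgeR 4.0.16 (R 4.3.3, TMM, filterByExpr, quasi-likelihood test), genotype without a block and phase with the library as a block. DESeq2 1.42.0 was an alternative. Adjusted p-values are Benjamini-Hochberg values over all genes tested, and exact permutation tests were run in scipy 1.17.1. The SE beside a log2 fold change comes from the edgeR fit (the fold change divided by the square root of the F statistic). It is not a standard error of the library values. On simulated counts for the genotype fit in all cells (15725 genes), 62.5% of 2-fold and 90% of 4-fold changes were recovered. For S-scored against G1-scored cells (14257 genes) these were 86% and 98%. Each gene was simulated with the spread typical of genes at its level. Recovery for members that vary more between libraries, such as H2ac24, was therefore not measured.

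The labels make the runs independent experiments, so the run pairs the genotypes: across genes, the run 1 minus run 2 differences of the genotypes correlated with r = 0.23 in all cells, 0.16 in G1-scored and 0.12 in S-scored cells. P-values of the genotype fits without a block cover the spread between libraries of pooled mice. Those of the phase fits, with the library as a block, cover how far the phase differences vary between libraries. In each fit edgeR draws part of the spread from other genes. For a member whose runs disagree, the edgeR p-value need not reflect the member's own spread. Genes named in the text are, in each class, the 4 members with the highest mean CPM, any member called in a genotype comparison, the 4 members each with the largest and the smallest S over G1 change, and genes of the 3 lists. Others (such as H2bc14, H2bc15, H4c18 and members that did not overlap between genotypes) were chosen after their values were seen. Members, lists and the named alternatives were chosen with earlier results of these data known. Stem-loops, shared ends and promoters were read from GENCODE M21 transcripts and RefSeq tables (GRCm38), and no coordinate was carried to GRCm39. UMI counts give counting error beside library spread, and a per-cell share covers cells with a UMI, not cells that express the gene. The labels name both nuclei and cells as the material, and the study's methods describe cells.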

Additional observations from a re-analysis of the deposited data

How the results depend on the processing

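S-scored against G1-scored cells, 53 members called, gave 52 to 53 with each library left out in turn and stayed within 1.5 times of 53 under every other setting run. It was joined by 1 member called lower with no filter on low counts, with phases called on cells that were not thinned and without Pax7Cre replicate 1. The call of 34 members for G2/M-scored against S-scored cells gave 23 to 34 with a library left out and 11 without the library as a replicate block. It gave 9 without that block and the single-library clusters, and 21 with phases called on cells that were not thinned. In the settings with 11, 9 and 21 members, 929 of 14257, 1077 of 14023 and 1240 of 14294 genes were higher. H1f1 turned from 0.16 to -0.043 on the log2 scale with phases called on cells that were not thinned, below the threshold in both. The numbers of all genes called in that comparison, 2839, became 1720 without the block and 4462 without the single-library clusters. They became 4604 when clusters named as another cell type were also left out. They became 1329 without Pax7Cre replicate 1, 1330 without Pax7Cre replicate 2 and 1353 without miR-501KO replicate 2. For these the cause was not tested.

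The genotype difference in S-scored share, 0.49 percentage points, was -1.22 without the single-library clusters. It was -1.55 when clusters named as another cell type were also left out. With a minimum of 2000 UMIs it was -0.90, and with phases called on cells that were not thinned -0.36. It ran from -1.08 to 2.06 with a library left out. The difference in member UMIs per 10000, 3.12, ran from -0.87 to 7.11 with a library left out, that of H1 from -1.95 to -0.01, H2A from 1.08 to 5.93, H2B from -0.12 to 0.41, H3 from -0.11 to 0.53 and H4 from -0.52 to 1.01. With a library left out, the median log2 fold change of members by genotype ran from -0.19 to 0.59 in all cells. It ran from -0.28 to 0.76 in S-scored cells, highest without miR-501KO replicate 2, and from -0.34 to 0.47 in G1-scored cells. The run as a replicate block called 1 member by genotype in G1-scored cells. With the single-library clusters also left out it called 8 members in all cells and 10 in S-scored cells. The block changed no other call of a member by genotype. Genes called by genotype, 0 in each fit, became 11, 6 and 10 in all, S-scored and G1-scored cells with DESeq2, 4 in G1-scored and 23 in S-scored cells with no filter on low counts, 1 and 137 in S-scored and G1-scored cells with the run block, and 181, 172 and 95 in all, S-scored and G1-scored cells with the block and without the single-library clusters. They became 6 in S-scored cells without the single-library clusters and those named as another cell type. Leaving out miR-501KO replicate 1 turned the median log2 fold change of members from 0.22 to -0.19 in all cells and to -0.28 in S-scored cells. A fit with 1 library in an arm assumes that it varies like the other group.

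With 2 libraries of pooled mice per genotype, permutations cannot pass a p of 0.05. Shared transcript ends, poly(A) priming and the cuts on the phase scores limit what a member's count stands for.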

Other observations

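The cell groups of the sort differed widely in members. Quiescent-like cells (2274 cells, named from markers such as Pax7, Calcr and Chodl) held 2.005, 1.81, 2.39 and 1.51 member UMIs per 10000, and committed-like cells (1376 cells, with Myog and Mymk) 2.54, 2.42, 3.24 and 1.74. In the clusters so named, 9 and 10 of 12 quiescent-like markers and 7 and 12 of 12 committed-like markers were raised. Cycling-like cells (2405 cells) held 34.0, 44.9, 69.2 and 36.3. Members were neither among the markers nor among the genes used to make the clusters. The cycling-like markers are cell cycle genes, so these levels are descriptions. Macrophage-like cells (344 cells) held 4.97 to 10.8 and mural-like cells (264 cells) 11.1 to 23.6 per 10000.

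The larger single-library cluster, 659 cells of the miR-501KO library of run 1 led by Mylpf, Ckm and Myl4, had its own member makeup. H2ac24 was at 697 CPM and supplied 68.5% of its member UMIs, while H1f5 was at 18.9 CPM and H2ac8 at 47.5 CPM. In the cells of that library outside the single-library clusters, H2ac24 supplied 27.6%. Within the cluster H2ac24 was at 660 CPM in the 112 G1-scored, 689 CPM in the 147 S-scored and 711 CPM in the 400 G2/M-scored cells, and other members summed to 3.04, 3.30 and 3.23 per 10000. After thinning to 5000 UMIs, 96.8% of its cells had an H2ac24 UMI and 8.50% an H1f5 UMI. In the G1-scored cells of that library outside the single-library clusters, at the same thinned depth, 5.57% had an H2ac24 UMI. The smaller cluster, with 96 of its 104 cells from the same library and a median of 7167 UMIs there, held 37.4 member UMIs per 10000 and H2ac24 at 1308 CPM, 35.0% of its member UMIs. The cause of these levels was not tested.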
